A study of Drosophila melanogaster with 20 samples.

Results

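The aminoacyl-tRNA synthetase genes of Drosophila melanogaster were followed across a wing disc tumor model. They were chosen by name alone: a FlyBase symbol made of 1 or 2 three-letter amino acid names and RS, with or without the ending -m, plus alpha-PheRS and beta-PheRS. Of the 13402 genes with a value, 31 met this rule, each through 1 probe set. Without the ending there were 17, counted here as cytosolic, and with it there were 14, counted as mitochondrial. A further 4 symbols of the rule, AlaRS-m, AspRS, HisRS and MetRS, are in the gene annotation and were not analysed here.

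Total RNA came from wing imaginal discs, the larval epithelial sacs that form the adult wing and thorax, with about 20 pairs of discs pooled in each sample, and was hybridised to Affymetrix arrays. There were 4 EP_Ctrl samples (EGFR+psqRNAi at 12 hr), 4 E_Ctrl samples (EGFR at 12 hr), 4 EP_EHT samples (EGFR+psqRNAi, early-hyperplastic tumors at day 4), 4 E_EHT samples (EGFR, early-hyperplastic tumors at day 4) and 4 EP_LNT samples (EGFR+psqRNAi, late-neoplastic tumors at day 11). EGFR was thus shared by all 5 groups, psqRNAi (RNA interference against pipsqueak, a gene for a DNA-binding protein) marked the EP groups, and 12 hr preceded tumor formation. The submitters set E_EHT replicate 1 aside for technical problems, so 19 arrays were compared. The labels used here name no driver of the transgenes, and no group without EGFR was analysed here. Tumor stage and time changed together across the groups, so their effects cannot be told apart.

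Aminoacyl-tRNA synthetases join each amino acid to its own tRNA with energy from ATP, and the loaded tRNAs feed the ribosome. Cells need a cytosolic set for proteins made in the cytosol and a mitochondrial set, encoded in the nucleus and imported, for the few proteins made inside the organelle. The enzymes fall into a pair of unrelated folds, class I and class II, and in human cells several cytosolic ones sit together in a multisynthetase complex held by the scaffold proteins AIMP1, AIMP2 and AIMP3. In human cells the genes for the glycine and lysine enzymes serve both compartments, so the split by symbol may place a dual gene with the cytosolic set. The fly annotation held no symbol of the rule with -m for glutamine, glycine, histidine, lysine or threonine. ThrRS, for example, is thus counted as cytosolic by its symbol alone.

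All values are log2 levels after the authors' robust multi-array normalization (RMA), 1 per gene and array. Array medians lay between 7.29 and 7.39, and the mean levels of the 31 genes over the 19 arrays between 5.88 and 10.6. An array has no read depth; the number of arrays set the precision, with a median standard error (SE) for these genes of 0.072 log2 units between groups of 4 arrays and 0.078 in comparisons with E_EHT. Tests are from limma, and "adjusted p" is its p after Benjamini-Hochberg adjustment over all 13402 genes of a comparison; a gene was called below 0.05. In such bulk samples, fewer cells of a type and less RNA per cell cannot be told apart. The 11 measured wing disc markers, nub and vg among them, averaged 9.58 to 9.89 on every array of EP_Ctrl, E_Ctrl and E_EHT, 9.09 to 9.88 in EP_EHT and 8.99 to 9.67 in EP_LNT. Markers of other tissues were present too. Those of salivary gland ranged over 8.34 to 11.56 in EP_Ctrl and 7.96 to 11.95 in E_Ctrl, so discs of 1 group differed widely in them.

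The EGFR discs at day 4 stood apart from the other groups in their cytosolic synthetases. Averaged over the 17 cytosolic genes, each set against its own mean over the 19 arrays, the E_EHT arrays lay at -0.17, -0.17 and -0.21 log2 units, while the E_Ctrl arrays lay at 0.095, 0.11, 0.048 and 0.13. None of the other 16 arrays was below -0.083. The 14 mitochondrial genes overlapped between these groups: they averaged 0.042, 0.007 and -0.069 on the E_EHT arrays and 0.169, 0.06, 0.033 and 0.178 on the E_Ctrl arrays. The group mean was lowest in E_EHT for 14 of the 17 cytosolic genes and 2 of the 14 mitochondrial genes, against 20% of all genes. The array that was set aside, E_EHT replicate 1, lay lower still, at -0.34 for the cytosolic and -0.19 for the mitochondrial genes.

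**Figure D1:**
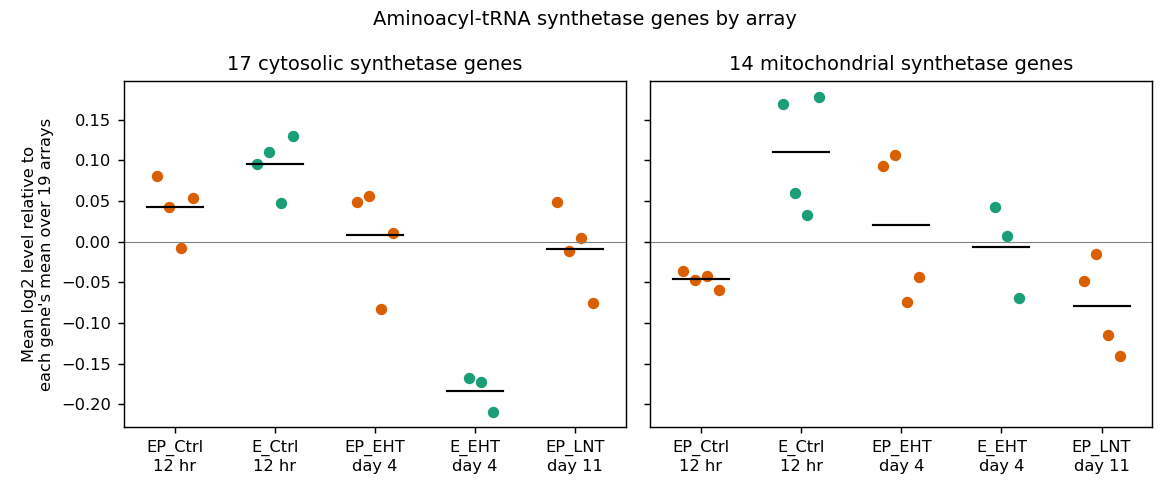
Each point is 1 array and shows the mean log2 level of the 17 cytosolic (left) or 14 mitochondrial (right) synthetase genes relative to each gene's mean over 19 arrays; orange marks EGFR+psqRNAi, green EGFR, and lines are group means. The 3 E_EHT arrays lie between -0.209 and -0.168 on the left, below the other 16 arrays, and between -0.069 and 0.042 on the right, among them.

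Day 4 was compared with 12 hr in EGFR discs, to describe the step to hyperplastic growth without psqRNAi. Time passed along with this step, and the effects of growth and of time cannot be told apart. Of the 17 cytosolic synthetases 10 fell and none rose, which is 58.8%, against 4.61% of all genes called lower and 1.97% called higher. Among the 5850 genes at least as bright as the dimmest cytosolic synthetase, ValRS, 9.28% were called lower. None of the 14 mitochondrial synthetases was called by limma. An unadjusted p below 0.05 was found for 5 of these 14, beside 3070 of all 13402 genes. The median log2 fold change was -0.3 for the cytosolic genes, -0.11 for the mitochondrial genes and 0.017 for all genes. The compartments also differed in precision, with a median SE of 0.071 for the cytosolic and 0.09 for the mitochondrial genes. Their median levels were 9.82 and 8.04, so the counts of calls do not stand on an equal footing.

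beta-PheRS, which encodes a subunit of the cytosolic phenylalanine enzyme, changed most. Its levels were 9.67, 9.45 and 9.51 on the E_EHT arrays, against 9.96, 10.04, 9.92 and 9.94 on the E_Ctrl arrays. All E_EHT arrays lay below all E_Ctrl arrays, and the log2 fold change was -0.42 ± 0.062 (SE; 1.34-fold lower, limma adjusted p = 0.00137). alpha-PheRS, the gene for the partner subunit, had 9.71, 9.45 and 9.36 in E_EHT and 9.83, 9.79, 9.82 and 9.9 in E_Ctrl. Those arrays did not overlap either, and the difference of -0.33 ± 0.111 missed the threshold (limma adjusted p = 0.0828).

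SerRS, the serine enzyme, had 9.74, 9.64 and 9.81 in E_EHT, against 10.1, 10.2, 10.05 and 10.2 in E_Ctrl. AsnRS, the asparagine enzyme, had 8.23, 8.43 and 8.19 in E_EHT, against 8.67, 8.68, 8.64 and 8.69 in E_Ctrl. AlaRS, the alanine enzyme, had 9.76, 9.74 and 9.86 in E_EHT, against 10.09, 10.16, 10.11 and 10.12 in E_Ctrl. The E_Ctrl arrays of each gene lay close together, and no E_EHT array reached them. SerRS fell by 0.41 ± 0.084 (SE; limma adjusted p = 0.0103), AsnRS by 0.39 ± 0.074 (limma adjusted p = 0.00693) and AlaRS by 0.34 ± 0.056 (limma adjusted p = 0.00314). GlyRS, the glycine enzyme, had 9.02, 9.04 and 8.94 in E_EHT, against 9.32, 9.36, 9.24 and 9.37 in E_Ctrl. Its change was -0.32 ± 0.063 (limma adjusted p = 0.00821), again with no overlap. Together with beta-PheRS these are the 5 called genes of class II.

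The other 5 called genes encode class I enzymes, and 4 of them belong to the set that forms the complex in human cells. ArgRS, the arginine enzyme, had 9.57, 9.51 and 9.43 in E_EHT and 9.87, 9.84, 9.71 and 9.97 in E_Ctrl, a log2 fold change of -0.35 ± 0.071 (limma adjusted p = 0.0104). LeuRS, the leucine enzyme, had 9.13, 9.17 and 9.11 in E_EHT and 9.46, 9.42, 9.38 and 9.5 in E_Ctrl, a change of -0.3 ± 0.055 (limma adjusted p = 0.00502). Both genes were separated completely between the groups. IleRS fell by 0.24 ± 0.053 (limma adjusted p = 0.0155) and GlnRS by 0.2 ± 0.058 (limma adjusted p = 0.0485). TyrRS, the tyrosine enzyme, which stands outside the human complex, fell by 0.23 ± 0.06 (limma adjusted p = 0.034). The complex members that were not called were LysRS, at -0.11 ± 0.06, and GluProRS, at -0.047 ± 0.089, which in animals carries the glutamate and proline enzymes on a single chain. These had the smallest changes among the cytosolic genes and were the only ones of the 17 whose E_EHT and E_Ctrl arrays overlapped.

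Counted over the whole cytosolic set, 15 of 17 genes had every E_EHT array below every E_Ctrl array, against 5 of the 14 mitochondrial genes and 14.8% of all genes. The called share was 4 of 6 for human complex members and 6 of 11 for the others. Besides alpha-PheRS, LysRS and GluProRS, the genes that missed the threshold were ValRS (limma adjusted p = 0.0529), ThrRS (0.0728), CysRS (0.0823) and TrpRS (0.0839), with log2 fold changes of -0.34, -0.25, -0.23 and -0.25. The calls of AlaRS, AsnRS, GlyRS, LeuRS and beta-PheRS held under all 16 alternative settings. Without E_EHT replicate 4 the count was 6, since ArgRS, GlnRS, IleRS and TyrRS were no longer called; SerRS was lost without E_EHT replicate 3. GlnRS, IleRS and TyrRS were also lost without E_Ctrl replicate 4 or without E_EHT replicate 2, GlnRS and TyrRS without E_EHT replicate 3 or E_Ctrl replicate 1 or 2, and TyrRS without E_Ctrl replicate 3. GlnRS and TyrRS were lost with a further quantile normalization, and GlnRS and IleRS with only these groups in the model. With array weights 17 genes were called, 15 cytosolic and 2 mitochondrial, and with only these 2 groups in the model 13, of which 1 was mitochondrial. The absence of mitochondrial calls therefore held in some settings and not in others. The share of all genes called in the alternative settings was not computed.

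Among the mitochondrial genes the changes between day 4 and 12 hr in EGFR discs ran from -0.27 ± 0.093 for ProRS-m (limma adjusted p = 0.0861) to 0.11 ± 0.065 for ArgRS-m (limma adjusted p = 0.349). ArgRS-m had 8.04, 8.09 and 8.01 in E_EHT and 7.89, 7.87, 8.03 and 7.95 in E_Ctrl, so its arrays overlapped and its mean lay on the other side of 0 from that of ArgRS. The pattern of both enzymes for 1 amino acid could be set side by side in 11 pairs, with PheRS-m, a single-chain enzyme, paired with each cytosolic subunit. In EGFR discs the cytosolic gene had the lower log2 fold change in 11 of the 11 pairs, by a median of 0.12. The gap was widest for arginine, at -0.35 for ArgRS and 0.11 for ArgRS-m, and close to 0 for cysteine, at -0.23 for CysRS and -0.22 for CysRS-m. The pairs were not tested.

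For fat body, a tissue next to the discs, the mean level of the 4 measured markers was 11.9 to 12.23 in E_EHT. It was 12.33 to 12.63 in E_Ctrl, with no overlap, although none of the 4 was called. Fbp1 was at -0.896 ± 0.448, against -0.034 ± 0.202 for Lsp2, -0.187 ± 0.254 for Fbp2 and -0.198 ± 0.376 for apolpp. Of all single genes, 14.8% were lower in E_EHT without overlap. The 8 salivary gland markers averaged 7.12 to 11.58 in E_EHT and 7.96 to 11.95 in E_Ctrl, and the 11 wing disc markers 9.58 to 9.72 in E_EHT and 9.61 to 9.75 in E_Ctrl, with 0 of them called. The 7 haemocyte markers averaged 8.17 to 8.79 in E_EHT and 8.01 to 8.41 in E_Ctrl. The part of other tissues in the synthetase result was not tested.

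The same step was compared in EGFR+psqRNAi discs. Here 0 of the 31 synthetases were called by limma between day 4 and 12 hr, whereas 2.95% of all genes were called higher and 1.78% lower. An unadjusted limma p below 0.05 was found for 4 of the 31 synthetases, beside 2341 of all 13402 genes. The median log2 fold change was -0.051 for the cytosolic and 0.06 for the mitochondrial genes, beside 0.01 for all genes. Values for single genes lay between -0.17 (SerRS) and 0.19 (LeuRS-m). beta-PheRS had 9.88, 9.89, 9.71 and 9.8 in EP_EHT and 9.95, 9.94, 9.86 and 9.94 in EP_Ctrl, a difference of -0.1 ± 0.058. AsnRS had 8.8, 8.74, 8.58 and 8.68 in EP_EHT and 8.62, 8.66, 8.63 and 8.6 in EP_Ctrl, a difference of 0.073 ± 0.069. Both pairs of groups overlapped. In this comparison, which shares no array with that in EGFR discs, the cytosolic gene had the lower log2 fold change in 11 of 11 pairs. The median gap was 0.09, and for leucine the values were -0.15 for LeuRS and 0.19 for LeuRS-m. Of the mitochondrial genes, 13 of 14 lay above 0, and of the cytosolic genes 11 of 17 lay below. Between the genotypes, at 12 hr and at day 4, the cytosolic gene was the lower in 1 of 11 pairs each. Genes on 1 array are not independent, and the pairs were not tested.

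**Figure D2:**
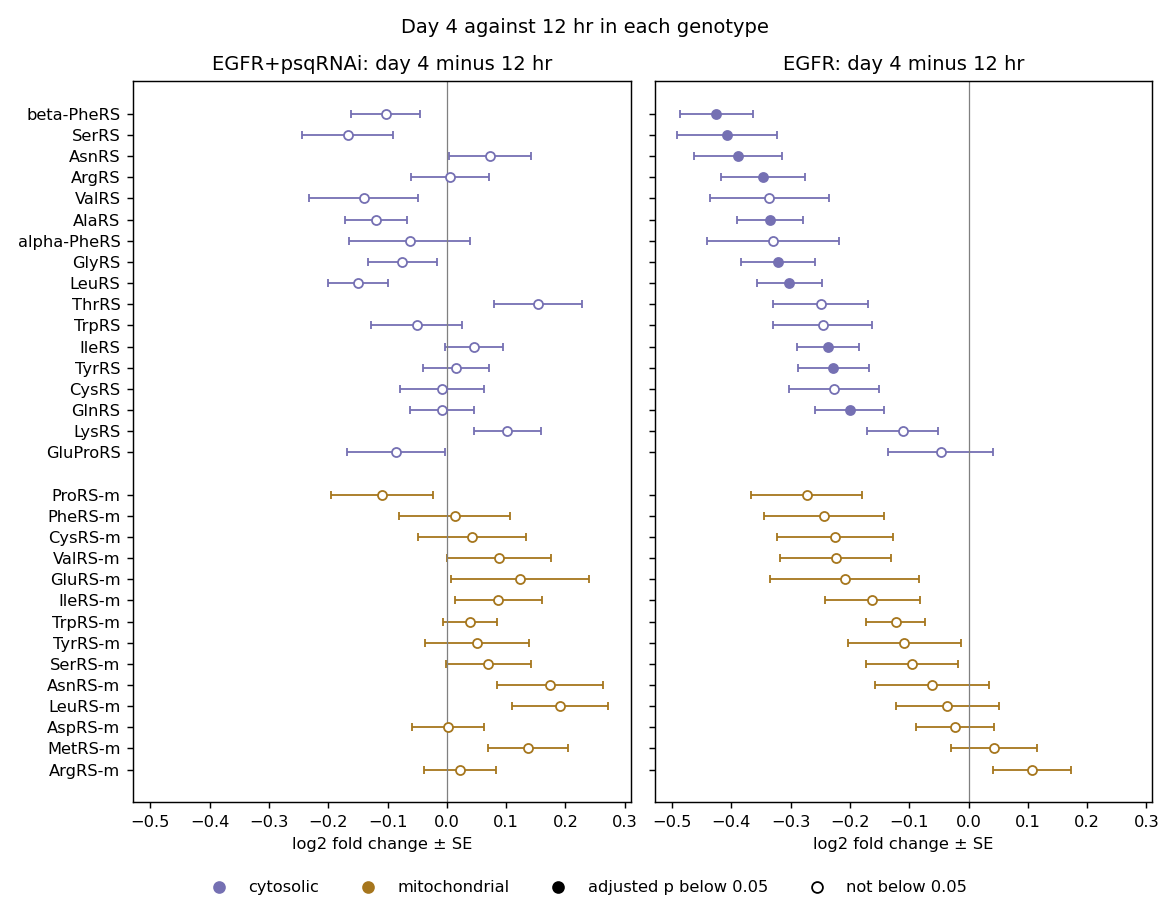
Log2 fold change ± SE of each synthetase gene at day 4 against 12 hr in EGFR+psqRNAi discs (left, 4 against 4 arrays) and EGFR discs (right, 3 against 4 arrays); filled points have a limma adjusted p below 0.05. On the right 10 of the 17 cytosolic genes are filled and all 17 lie below 0, and on the left no point is filled.

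Whether the day 4 change differed between the genotypes was tested as an interaction. No synthetase was called, and neither was any of the 13402 genes (0% of all genes); at an unadjusted p below 0.05 there were 10 cytosolic and 3 mitochondrial synthetases and 2177 genes in all. The median interaction was 0.24 log2 units over the cytosolic genes, 0.196 over the mitochondrial genes and -0.01 over all genes, so the medians of both compartments lay above 0. AsnRS, at 0.46 ± 0.101, IleRS, at 0.28 ± 0.072, beta-PheRS, at 0.32 ± 0.085, and ThrRS, at 0.4 ± 0.11, shared the lowest limma adjusted p, 0.138. Without EP_EHT replicate 4, AsnRS and ArgRS were called. How many of all genes were called in that setting was not computed. The SE of this contrast was larger, with a median of 0.106 over the 31 genes. A different response of the genotypes was thus not shown for any synthetase at this number of arrays.

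Between the genotypes at day 4, AsnRS, IleRS, beta-PheRS and TyrRS were called higher in EP_EHT discs than in E_EHT discs. This comparison uses the same E_EHT arrays as the one over time in EGFR discs, so the pair are not separate evidence. By limma, 4 of 17 cytosolic genes rose and 0 of 14 mitochondrial genes, against 2.39% of all genes called higher and 0.783% called lower. AsnRS rose by 0.42 ± 0.074 (SE; 1.34-fold, limma adjusted p = 0.00461): EP_EHT arrays had 8.8, 8.74, 8.58 and 8.68, against 8.23, 8.43 and 8.19 on E_EHT arrays. beta-PheRS rose by 0.28 ± 0.062 (limma adjusted p = 0.0201), with 9.88, 9.89, 9.71 and 9.8 in EP_EHT and 9.67, 9.45 and 9.51 in E_EHT. Neither gene overlapped between the groups, although the lowest EP_EHT array of beta-PheRS lay just above the highest E_EHT array.

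IleRS had 10.17, 10.05, 10.06 and 10.12 in EP_EHT, against 9.79, 9.89 and 9.83 in E_EHT, and TyrRS had 10.68, 10.67, 10.48 and 10.58 in EP_EHT, against 10.37, 10.43 and 10.32 in E_EHT. Again all EP_EHT arrays were the higher ones. The log2 fold change was 0.26 ± 0.053 for IleRS (limma adjusted p = 0.0109) and 0.23 ± 0.06 for TyrRS (limma adjusted p = 0.0447). In all, 10 of 17 cytosolic and 0 of 14 mitochondrial genes had every EP_EHT array above every E_EHT array, against 8.32% of all genes. The cytosolic median was 0.195, the mitochondrial median 0.052 and that of all genes -0.007. ArgRS-m ran the other way, with 7.79, 7.76, 7.96 and 7.82 in EP_EHT and 8.04, 8.09 and 8.01 in E_EHT, a difference of -0.21 ± 0.065 that was not called (limma adjusted p = 0.0898). With only these 7 arrays in the model 0 of the 4 calls held, and AsnRS was the only one that held whichever array was left out. IleRS was lost without E_EHT replicate 2 or 4. beta-PheRS was lost without EP_EHT replicate 1 or 2 or E_EHT replicate 3 or 4, and TyrRS without any of those 4 or E_EHT replicate 2, and also with a further quantile normalization or array weights. The count ranged from 1, without E_EHT replicate 4, to 6. It was 2 without EP_EHT replicate 1 or 2 or without E_EHT replicate 2 or 3.

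Fat body markers averaged 11.23 to 11.86 in EP_EHT and 11.9 to 12.23 in E_EHT, without overlap, and those of salivary gland 7.51 to 11.36 in EP_EHT and 7.12 to 11.58 in E_EHT, with no member of either list called. Haemocyte markers averaged 8.22 to 8.99 in EP_EHT and 8.17 to 8.79 in E_EHT, and wing disc markers 9.09 to 9.88 in EP_EHT and 9.58 to 9.72 in E_EHT. The 4 muscle markers averaged 8.08 to 9.39 in EP_EHT and 8.71 to 9.81 in E_EHT, with 0 called, and the 4 markers of neurons and glia 6.85 to 7.11 in EP_EHT and 7.03 to 7.4 in E_EHT. Of these elav, a neuronal RNA-binding protein gene, was called lower, at -0.35 ± 0.09 (limma adjusted p = 0.0432). Their part in this result was not tested.

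Before tumor formation, the genotypes were compared at 12 hr. TrpRS-m, the mitochondrial tryptophan enzyme, was the only synthetase called by limma: it had 8.56, 8.57, 8.54 and 8.61 in EP_Ctrl, against 8.82, 8.77, 8.7 and 8.83 in E_Ctrl. No arrays overlapped, and it fell by 0.21 ± 0.046 (SE; limma adjusted p = 0.0204). That is 1 of 31 genes, against 1.76% of all genes called lower and 0.664% called higher. Without EP_Ctrl replicate 1 or 3, or without E_Ctrl replicate 1 or 4, it was not called, nor was it with arrays centred on their medians, with E_EHT replicate 1 kept or with only these groups in the model. All 14 mitochondrial genes had a log2 fold change below 0, between -0.29 and -0.066 with a median of -0.15, and the cytosolic median was -0.039. ProRS-m had 8.1, 8.01, 8.01 and 8.04 in EP_Ctrl and 8.41, 8.3, 8.24 and 8.37 in E_Ctrl, with no overlap, at an adjusted p of 0.097 in limma. ThrRS, the threonine enzyme counted as cytosolic, had 10.46, 10.39, 10.47 and 10.46 in EP_Ctrl and 10.78, 10.63, 10.63 and 10.71 in E_Ctrl, again without overlap, at an adjusted p of 0.106 in limma. The sign shared by the mitochondrial genes is a description: genes on 1 array are not independent. The 4 fat body markers averaged 11.91 to 12.77 in EP_Ctrl and 12.33 to 12.63 in E_Ctrl.

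**Figure D3:**
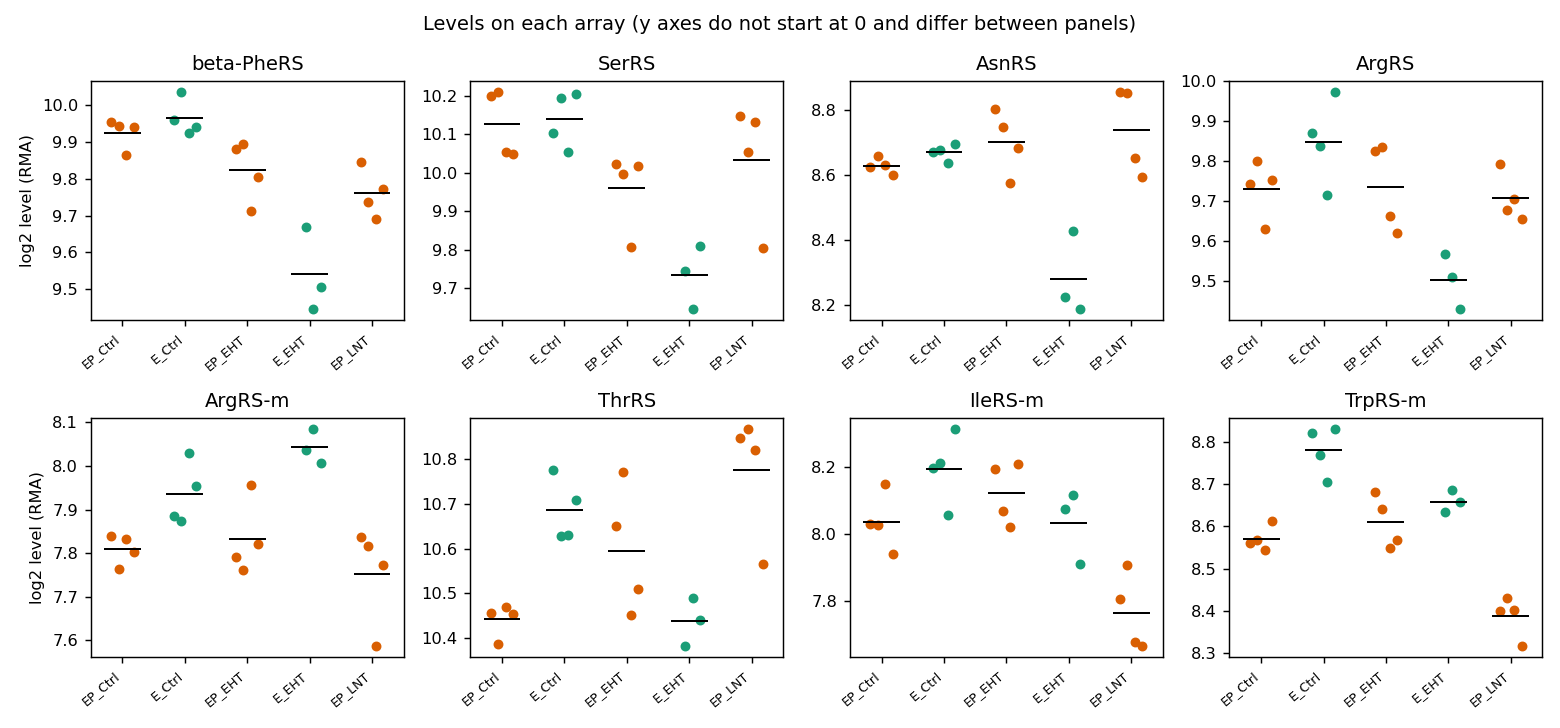
Log2 levels of 8 synthetase genes on each of 19 arrays (orange EGFR+psqRNAi, green EGFR, lines group means); the y axes are cut and differ between panels. beta-PheRS, SerRS, AsnRS and ArgRS have their lowest group mean in E_EHT, ArgRS-m its highest there, ThrRS its highest in EP_LNT, and IleRS-m and TrpRS-m their lowest in EP_LNT.

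Late-neoplastic tumors were compared with both earlier stages of EGFR+psqRNAi discs, which share the EP_LNT arrays. Against day 4, no cytosolic gene was called and 2 of 14 mitochondrial genes fell, IleRS-m and TrpRS-m, against 4.49% of all genes called higher and 2.5% lower. Against 12 hr, 1 cytosolic gene rose and 3 fell, and the same 2 mitochondrial genes fell, against 12.1% of all genes called higher and 10% lower. The shares called lower, 3 of 17 and 2 of 14, were close to the share among all genes.

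IleRS-m, the mitochondrial isoleucine enzyme, had 8.03, 8.03, 8.15 and 7.94 in EP_Ctrl at 12 hr, 8.2, 8.07, 8.02 and 8.21 in EP_EHT at day 4 and 7.81, 7.91, 7.68 and 7.66 in EP_LNT at day 11. The day 11 arrays lay below all arrays of both earlier stages. The log2 fold change was -0.36 ± 0.074 (limma adjusted p = 0.00624) against day 4 and -0.27 ± 0.074 (limma adjusted p = 0.0132) against 12 hr. TrpRS-m had 8.56, 8.57, 8.54 and 8.61 at 12 hr, 8.68, 8.64, 8.55 and 8.57 at day 4 and 8.4, 8.43, 8.4 and 8.32 at day 11. It was likewise lowest on every day 11 array, at -0.22 ± 0.046 (limma adjusted p = 0.00626) against day 4 and -0.18 ± 0.046 (limma adjusted p = 0.00785) against 12 hr. With only the compared groups in the model, neither gene was called against day 4. The cytosolic partners were not called: against day 4 IleRS was at 0.001 ± 0.049 and TrpRS at -0.048 ± 0.077. EP_LNT had the lowest group mean for 7 of the 14 mitochondrial genes and 2 of the 17 cytosolic genes, against 26.2% of all genes.

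ThrRS had group means of 10.44 ± 0.037 at 12 hr, 10.6 ± 0.144 at day 4 and 10.78 ± 0.142 at day 11 (SD, n = 4 each). Its arrays had 10.46, 10.39, 10.47 and 10.46 at 12 hr and 10.85, 10.87, 10.82 and 10.57 at day 11, with no overlap. The rise at day 11 against 12 hr was called, at 0.33 ± 0.074 (1.26-fold, limma adjusted p = 0.00341), and those between neighbouring stages were not. LeuRS had 9.07, 9.1, 9.16 and 9.03 in EP_LNT, against 9.38, 9.4, 9.27 and 9.41 in EP_Ctrl, and fell by 0.28 ± 0.051 (limma adjusted p = 0.000762). GlyRS, with 9.06, 9.1, 8.99 and 8.9 in EP_LNT and 9.26, 9.18, 9.15 and 9.35 in EP_Ctrl, fell by 0.22 ± 0.058 (limma adjusted p = 0.0101). Neither gene overlapped between the groups. beta-PheRS fell by 0.16 ± 0.058 (limma adjusted p = 0.0495), a call lost without EP_Ctrl replicate 1, 2 or 4 and without EP_LNT replicate 2, 3 or 4. With only these groups in the model GlyRS and beta-PheRS were not called. ThrRS, LeuRS and TrpRS-m were called under every alternative, and with E_EHT replicate 1 kept in the model they were the 3 calls that remained of 6.

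Markers of several tissues were called at day 11. Beside them, 12.1% of all genes were called higher and 10% lower against 12 hr. Of the 7 haemocyte markers 6 rose against 12 hr, with a mean level of 8.68 to 9.7 in EP_LNT and 7.92 to 8.51 in EP_Ctrl. Of the 4 fat body markers all 4 fell, with a mean level of 10.02 to 10.42 in EP_LNT, against 11.91 to 12.77 in EP_Ctrl. Of the 11 wing disc markers 6 fell and 1 rose. Of the 8 salivary gland markers 3 were called lower, with a median log2 fold change of -3.333 over the 8. Their mean level was 5.76 to 8.4 in EP_LNT, against 8.34 to 11.56 in EP_Ctrl. Of the 4 muscle markers 3 fell, with a mean level of 8.02 to 8.29 in EP_LNT and 8.62 to 11.56 in EP_Ctrl, and of the 4 markers of neurons and glia 0 were called. Against day 4, 4 haemocyte markers rose, 2 fat body markers and 1 salivary gland marker fell, and of the wing disc markers hh fell while tup and eyg rose. The median over the 8 salivary gland markers was -3.465 there, and 4.49% of all genes were called higher and 2.5% lower. Their part in the synthetase changes at day 11 was not tested.

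**Figure D4:**
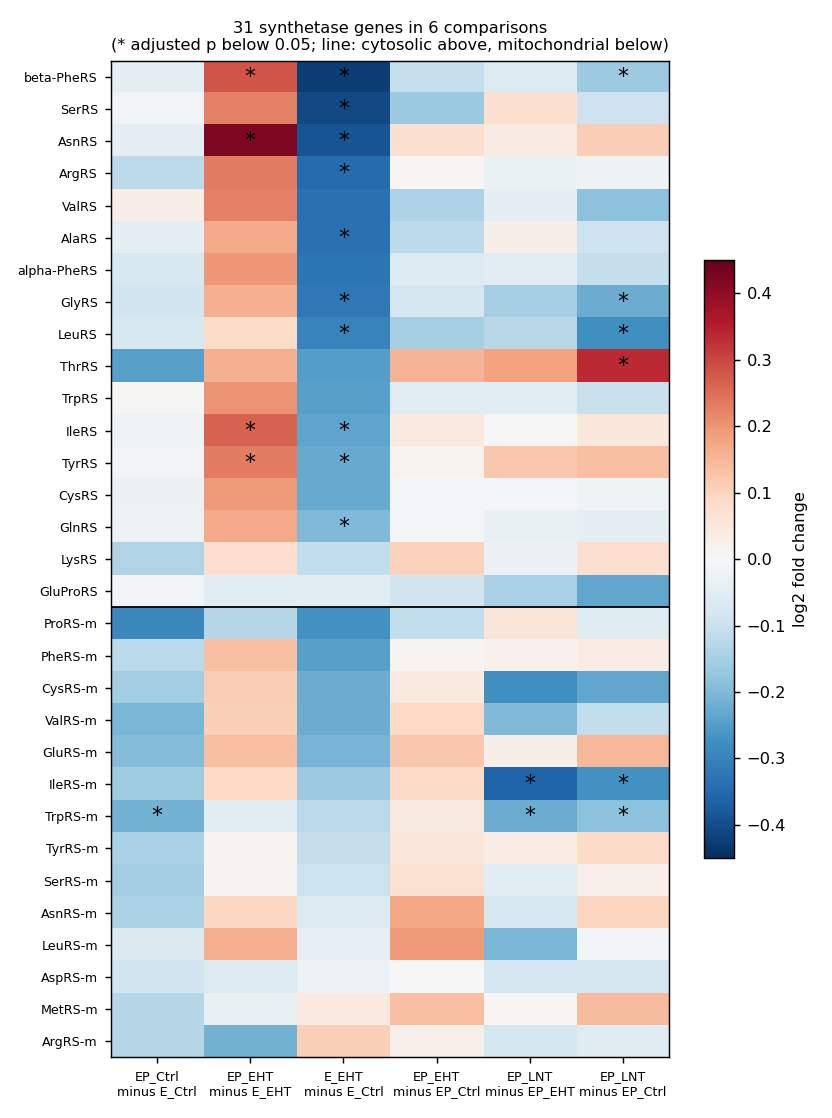
Log2 fold changes of the 31 synthetase genes (rows, in the order of the change between E_EHT and E_Ctrl within each compartment) in 6 comparisons (columns); red is higher and blue lower in the group named first, and stars mark a limma adjusted p below 0.05. The E_EHT against E_Ctrl column holds 10 stars, all above the line that parts cytosolic from mitochondrial genes; columns that share arrays are not independent.

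The genes that work beside the synthetases were read from lists. Of all genes, 4.61% were called lower in E_EHT against E_Ctrl and 2.39% higher in EP_EHT against E_EHT. In EP_Ctrl against E_Ctrl 1.76% were called lower. For EP_LNT, 12.1% were called higher and 10% lower against EP_Ctrl, and 4.49% higher against EP_EHT. These shares stand beside the calls in every list below. Of the 3 scaffold proteins, AIMP2 fell in E_EHT against E_Ctrl and AIMP1 and AIMP3 were not called. AIMP2 had 10.27, 10.16 and 10.19 in E_EHT and 10.5, 10.63, 10.54 and 10.62 in E_Ctrl, with no overlap, at -0.37 ± 0.075 (limma adjusted p = 0.00968). AIMP1 was at -0.19 ± 0.078 and AIMP3 at -0.26 ± 0.088. In EP_EHT against E_EHT AIMP2 rose by 0.4 ± 0.075 (limma adjusted p = 0.00689), a comparison that shares the E_EHT arrays. No scaffold gene was called in the other 5 comparisons. Slimp, a mitochondrial relative of the serine enzyme in the fly, and GatA and GatB, which encode subunits of the enzyme that turns glutamate on a mitochondrial tRNA into glutamine, were called in no comparison.

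Of the 5 measured genes in the list of cytosolic elongation factors, 1 was called in any comparison. The genes eEF1alpha1, eEF1beta and eEF2 of that list had no value here. eEF1delta, a subunit of the nucleotide exchange factor of eEF1A, had 10.45, 10.45 and 10.52 in E_EHT, against 10.92, 11.08, 10.93 and 11.14 in E_Ctrl. The arrays did not overlap, and the fall of 0.54 ± 0.087 (limma adjusted p = 0.00259) was larger than that of any synthetase in this comparison. It rose by 0.36 ± 0.087 in EP_EHT against E_EHT (limma adjusted p = 0.0313) and fell by 0.28 ± 0.081 in EP_LNT against EP_Ctrl (limma adjusted p = 0.0187). Of the 8 measured mitochondrial translation factors 3 fell in E_EHT against E_Ctrl, where 4.61% of all genes were called lower: mEFTs by 0.3 ± 0.071, mEFG1 by 0.26 ± 0.076 and mIF3 by 0.3 ± 0.08, with limma adjusted p of 0.0231, 0.0473 and 0.0345. The median log2 fold change there was -0.242 over these 8 genes and -0.068 over the 5 cytosolic elongation factors. In EP_EHT against E_EHT the mitochondrial ribosome recycling factor gene mRRF1 rose by 0.67 ± 0.095 (limma adjusted p = 0.000635), and in EP_Ctrl against E_Ctrl mIF2 fell by 0.39 ± 0.083 (limma adjusted p = 0.017) and mEFTu2 by 0.34 ± 0.08 (limma adjusted p = 0.0324). mEFTu2 rose by 0.23 ± 0.08 in EP_LNT against EP_Ctrl (limma adjusted p = 0.0459).

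Uncharged tRNA activates the kinase Gcn2 of the integrated stress response, whose factor ATF4, crc in the fly, is known in mammals to raise transcription of synthetase genes. Of 11 measured genes of this response, none was called in E_EHT against E_Ctrl, with a median of -0.05. The genes Thor, Psat and Xrp1 of that list had no value here. crc itself had 12.09, 12.1 and 12.11 in E_EHT and 12.06, 12.04, 12.11 and 12.08 in E_Ctrl, an overlap. In EP_EHT against E_EHT AsnS, the asparagine synthetase that makes the amino acid used by AsnRS, rose by 0.58 ± 0.15 (limma adjusted p = 0.0436). At day 11 against 12 hr 4 of the 11 rose: Sesn by 0.87 ± 0.188, Irbp18 by 0.87 ± 0.137, AsnS by 0.44 ± 0.139 and crc by 0.16 ± 0.04, with limma adjusted p of 0.0026, 0.000183, 0.0295 and 0.00755. That share stands beside the 12.1% of all genes called higher there. Sesn and Irbp18 also rose against day 4, by 0.83 ± 0.188 and 0.75 ± 0.137 (limma adjusted p of 0.0123 and 0.00259). All these values are RNA levels, and the part of this response in the synthetase changes was not tested.

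Of the 7 measured genes of tRNA maturation and modification 2 fell in E_EHT against E_Ctrl, beside 4.61% of all genes. Nsun2, a tRNA cytosine methyltransferase, fell by 0.38 ± 0.075 (limma adjusted p = 0.00821) and Elp3, the catalytic subunit of Elongator, by 0.2 ± 0.052 (limma adjusted p = 0.029). Mt2, another tRNA cytosine methyltransferase, rose by 0.61 ± 0.151 in EP_EHT against E_EHT (limma adjusted p = 0.0349), at levels of 5.53 to 6.1 in EP_EHT and 5.01 to 5.3 in E_EHT, below the array medians. Elp2 fell by 0.42 ± 0.088 in EP_Ctrl against E_Ctrl (limma adjusted p = 0.0157), and RNaseZ rose by 0.14 ± 0.051 in EP_LNT against EP_Ctrl (limma adjusted p = 0.0499).

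The 31 genes are spread over the genome, with 6 on chromosome arm 2L, 6 on 2R, 9 on 3L, 7 on 3R and 3 on X of the Release 6 assembly. The arms of the 10 genes called in E_EHT were 2L, 3L, 3R and X, for example beta-PheRS at chr3R:24250460-24252679, SerRS at chr2L:3035493-3037403, AsnRS at chr2L:19129469-19131954 and ArgRS at chrX:15841769-15844145. GluRS-m (chr3L:16415292-16417177) and TyrRS (chr3L:16417349-16419302) are next to each other with 171 bases and no whole gene between them. In E_EHT against E_Ctrl, TyrRS was at -0.23 ± 0.06 and called, and GluRS-m, the mitochondrial glutamate enzyme, at -0.21 ± 0.125 and not called (limma adjusted p = 0.342); GluRS-m had 7.68, 7.64 and 7.51 in E_EHT and 7.93, 7.71, 7.73 and 7.9 in E_Ctrl.

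Over the 5 groups the synthetases moved little. The range of the group means of a gene was 0.137 to 0.457 log2 units for the cytosolic genes, with a median of 0.335, and 0.146 to 0.432 for the mitochondrial genes, with a median of 0.226. The SD between arrays of 1 group, pooled over the groups, had a median of 0.088 for the cytosolic and 0.118 for the mitochondrial genes. AsnRS had the widest range of the cytosolic genes, between 8.28 ± 0.128 in E_EHT (SD, n = 3) and 8.74 ± 0.135 in EP_LNT (SD, n = 4), and LysRS the narrowest. IleRS-m had the widest of the mitochondrial genes. E_Ctrl held the highest group mean for 11 of 17 cytosolic and 10 of 14 mitochondrial genes, against 20.7% of all genes.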

How the data were processed

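Total RNA from wing discs was labelled with biotin and hybridised to Affymetrix arrays, per the labels' protocols. The deposited values are log2 levels per probe set that the authors made with RMA; the submitters' processing notes name RMA and limma without versions. RMA makes the distributions of arrays nearly equal, so a shift of most genes one way would not be seen.

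Of 16322 probe sets, 13441 had 1 gene symbol in the platform annotation, 555 had several and 2326 had none used here. For 37 genes with several probe sets the brightest was kept, which left 13402 genes. Positions are those of genes in the RefSeq table (Release 6 plus ISO1 MT); the labels give no build, and no sequence is printed.

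A mean per group was fitted to the 19 arrays together (limma 3.58.1 in R 4.3.3; 14 residual and 2.63 prior degrees of freedom). P-values are two-sided and adjusted by Benjamini-Hochberg over the 13402 genes of each of 7 comparisons, with a threshold of 0.05. The model was also run on simulated arrays with independent noise for each gene and no shared array effects. The outcome is not given, and no result here rests on it. The labels call the samples biological replicates; they share no known batch. The genes, lists and tests were chosen with earlier results of these data known. Any synthetase could be named, and of each other list up to 4 called genes per comparison with the largest change. Outside that rule, AIMP1, AIMP3, Slimp, GatA, GatB, crc and the measured fat body markers were also named where they were not called. Same-numbered replicates did not deviate together (9 of 36 pairs correlated above 0.1), so the numbers were not taken as pairs.

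Each result was also computed with each array left out in turn, with E_EHT replicate 1 kept, after centring arrays on their medians, after another round of quantile normalization, without genes of a mean level below 5.9, with array weights, with a variance trend fitted robustly, with the groups of a comparison alone, with all probe sets, and with the replicate number as a block.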

Additional observations from a re-analysis of the deposited data

Results flagged for a closer look

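Within groups of 4 arrays, 132 sets of values were examined, 124 of single genes and 8 of the mean over a compartment. In 8 of them, all of single genes, 1 array stood far from the other 3, with a gap to its nearest neighbour, as a share of the group's range, above Dixon's critical value; chance alone gives about 1 such group in 20. GlnRS had 9.96 on EP_Ctrl replicate 2 and 9.87 to 9.88 on the others, beta-PheRS 9.86 on EP_Ctrl replicate 3 and 9.94 to 9.95 on the others, and CysRS-m 6.14 on EP_Ctrl replicate 4 and 5.81 to 5.85 on the others. SerRS had 9.81 on EP_EHT replicate 3 and 10 to 10.02 on the others. In EP_LNT, ThrRS had 10.57 on replicate 4 against 10.82 to 10.87, and TyrRS 10.84 on replicate 1 against 10.68 to 10.69. ProRS-m had 8.11 on EP_LNT replicate 2 against 7.94 to 7.95, and ValRS-m 6.99 on the same array against 6.75 to 6.79. ThrRS and beta-PheRS are called between EP_LNT and EP_Ctrl: the call of ThrRS held without any 1 array, and that of beta-PheRS did not.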

How the results depend on the processing

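Of 372 values recomputed under the alternatives, 350 stayed near the main value. For a count this allowed some change, as from 10 calls to 7 in E_EHT against E_Ctrl without E_Ctrl replicate 4. Only synthetases were counted under the alternatives, so no share of all genes stands beside those counts. For a median it allowed a shift below the SD between arrays, 0.044 for the cytosolic and 0.065 for the mitochondrial mean. The sign of a median could change within that limit. The cytosolic median of EP_LNT against EP_EHT was -0.029 and ranged from -0.053 to 0.005 with 1 array left out. Synthetases called in E_EHT against E_Ctrl numbered 10, 17 with array weights and 6 to 9 with 1 array left out; the cytosolic median then ranged from -0.323 to -0.255. In EP_EHT against E_EHT, 4 became 0 with only the groups compared and 1 to 6 with 1 array left out. In EP_LNT against EP_EHT, 2 became 0 with only the groups compared and 2 to 3 with 1 array left out. In EP_LNT against EP_Ctrl, 6 became 3 with E_EHT replicate 1 kept and 5 to 7 with 1 array left out, and the cytosolic median of -0.093 became -0.049 with array weights and -0.103 to -0.018 with 1 array left out. In EP_Ctrl against E_Ctrl, 1 became 0 with E_EHT replicate 1 kept or arrays centred, 3 with array weights, and 0 to 1 with 1 array left out. The interaction had 0 calls and 0 to 2 with 1 array left out, and the cytosolic median of EP_EHT against EP_Ctrl ranged from -0.075 to -0.001. The only-groups setting has fewer arrays behind its variance; the other causes were not tested. With the replicate block, which the design does not give as a pairing, the counts were 10 in E_EHT against E_Ctrl, 3 in EP_EHT against E_EHT, 2 in EP_LNT against EP_EHT, 7 in EP_LNT against EP_Ctrl, 1 in EP_Ctrl against E_Ctrl and 0 in the others; TyrRS was no longer called in the first and second of these. CysRS-m, the dimmest synthetase, was the only one with a mean level below 5.9, and it was not tested where such genes were left out. Differences near the median SE of 0.072 to 0.106 could not be resolved with 3 or 4 arrays a group.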
